A study of Mus musculus with 16 samples.

Results

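The 10 genes described here are genes of muscle contraction, and they were followed across radiation and diet in the mouse jejunum. The set holds Acta1, Acta2, Actg2, Myh11, Mylk, Des, Cnn1, Tagln, Smtn and Lmod1, chosen by name for their roles in smooth and striated muscle. Earlier results of these data were known when the set was chosen. All 10 genes were found among the 37620 gene IDs of the files. RNA came from the first stretch of jejunum (proximal jejunum, in the small intestine) of CBA/J males aged 8 weeks. In 16 libraries, 4 per group, mice on a methionine-adequate diet with 0 Gy or 8.5 Gy of gamma rays were set beside mice on a methionine-supplemented diet (300%) with 0 Gy or 8.5 Gy. A period of 6 days is stated in the design text, without saying if it counts from the diet or from the irradiation. Nothing in the labels names the animal behind a library, so p-values measure the spread between libraries.

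The wall of the jejunum carries an inner circular and an outer longitudinal layer of smooth muscle, a thin muscle sheet under the mucosa, and strands of smooth muscle in the villi. Contraction begins when calcium and calmodulin activate myosin light chain kinase, the product of Mylk, which phosphorylates the light chain of the smooth muscle myosin Myh11 so that it pulls on actin filaments of Acta2 and Actg2. Cnn1 encodes a calponin and Tagln the calponin-related transgelin, and both bind these filaments. Smtn encodes smoothelin of contractile smooth muscle, Lmod1 encodes a leiomodin that starts new actin filaments, and Des encodes the intermediate filament desmin of all muscle types. Acta1 encodes the actin of skeletal muscle. Many of these genes are targets of serum response factor (SRF), which binds CArG boxes in promoters together with myocardin or with the actin-sensing cofactors of the Mrtf family.

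Since 3 of the genes are actins of very similar sequence, the coding sequences decide how well reads can be assigned to each. In the GENCODE M21 annotation of GRCm38, the coding sequences of Acta1, Acta2, Actg2 and the cardiac actin Actc1 were between 82.5% and 86.2% identical to each other. The most different stretch of 60 coding bases, from coding base 436 to 495 (433 to 492 in Actg2), held 21 positions at which any of the 4 differed. It is shown 5′ to 3′ because it is where the actins are easiest to tell apart. Capitals mark the bases that differ from Acta1, and in the Acta1 line the positions where any other differs.
Acta1: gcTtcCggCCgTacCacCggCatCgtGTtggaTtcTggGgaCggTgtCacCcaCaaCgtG
Acta2: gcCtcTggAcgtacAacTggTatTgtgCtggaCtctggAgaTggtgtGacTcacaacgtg
Actg2: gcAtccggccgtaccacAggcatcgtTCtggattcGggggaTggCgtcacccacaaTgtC
Actc1: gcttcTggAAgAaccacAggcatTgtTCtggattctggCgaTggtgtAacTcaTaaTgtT

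Over whole transcripts cut into stretches of 48 bases, chosen here near the 45 to 48.4 bases that the files imply as the median fragment, 2.15% of the distinct stretches of Acta1 were also found in another gene, 33 of them in Gm47692 and 30 in the cytoplasmic actin Actb. The share was 0.42% for Acta2 and 0% for Actg2, Cnn1 and Lmod1. Among the others it was 0.39% for Myh11, 4.67% for Mylk, 4.66% for Des, 9.7% for Smtn and 58.75% for Tagln. Most of the Tagln overlap belonged to an antisense gene, Gm48529, which covered 62.42% of the exon bases of Tagln and is not listed in the files. Counting by strand is not stated in the sources used here, so reads from the overlapping stretches of Tagln, Smtn, Des and Mylk cannot be told apart from those of antisense partners. Found in no other gene were 41.25% of the stretches of Tagln, 90.3% for Smtn, 95.34% for Des and 95.33% for Mylk. The partners of Smtn and Des that the files list were low, with Gm11946 at up to 7.83 CPM (counts of a gene scaled to a common library total with TMM, a factor that evens out differences in library make-up) and Gm15179 at up to 0.0833 CPM. Pcsk7, a protein-coding gene on the strand opposite Tagln that covered 5.43% of its exon bases, was not low beside it, at up to 44.0 CPM. Estimated counts of Cnn1 and Lmod1 were whole numbers, within 0.005, in 16 of 16 libraries. Those of Tagln were whole in 15 of 16, of Des in 8, and of Acta1 and Mylk in 2 each. For Acta2, Actg2, Myh11 and Smtn they were whole in 0 of 16, although Actg2 shared no stretch. The shared stretches thus do not tell which genes had counts split with others, and this was not tested.

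Libraries held 2.57 to 15.51 M (mega) counts, and 3 were under 4 M. These were unirradiated replicate 1 and irradiated replicate 2 on the adequate diet, and irradiated replicate 1 on the supplemented diet. The lowest estimated count of a muscle gene in any library was 9.44, for Acta1. Of the epithelial list all 13 genes were present, with a summed level of 7495 to 14262 CPM, and all 15 further smooth muscle markers were tested, with a summed level of 257.7 to 507.9 CPM.

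Some libraries stood apart from their groups. On the adequate diet, irradiated replicate 4 was the highest of its group for 9 of the 9 members without Acta1, and the highest of all 16 libraries for 5 of them. On the supplemented diet, unirradiated replicate 1 was the lowest of its group for 9 of 9 and the lowest of all 16 libraries for 5. Irradiated replicate 4 on the supplemented diet was the nearest of its group to unirradiated libraries. Over the 2270 genes that radiation changed on the adequate diet, it stood at 0.59 on a scale from 0 (the unirradiated supplemented libraries) to 1 (the full difference on the adequate diet), against 0.77 to 0.89 in the other 3 irradiated supplemented libraries. Its Hba-a1 level, an alpha globin, was 1.65 CPM, within the 1.25 to 5.17 CPM of the irradiated libraries and under the 22.2 to 82.5 CPM of the unirradiated ones. Results on the supplemented diet are therefore given with and without this library where it moved them. It was singled out for its weak response, over genes that include Mylk and Acta1, so leaving it out favours larger changes. Adjusted p-values without it are descriptive.

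With adequate methionine, Mylk and Acta1 fell after radiation and none of the other 8 muscle genes passed the test. With edgeR's quasi-likelihood test over 16558 genes and Benjamini-Hochberg adjustment, 2 of 10 muscle genes were called lower at an adjusted p under 0.05 and 0 higher, where 6.58% of all genes tested were called lower and 7.13% higher. The median log2 fold change of the 10 was 0.12, against 0.01 over all genes tested. In bulk tissue, fewer cells of a type and less RNA per cell cannot be told apart.

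With supplemented methionine Mylk alone fell after radiation, so 1 of 10 muscle genes was called lower and 0 higher, where 7.21% of all genes were called lower and 8.03% higher. The median log2 fold change of the 10 was 0.18, against 0.01 over all genes. Without irradiated replicate 4, the library nearest to unirradiated ones, 3 of 10 were called, Mylk and Acta1 lower and Lmod1 higher. The shares of all genes called became 10.7% lower and 10.8% higher. These calls are descriptive, since that library was singled out by its own response. The diets share no libraries in these comparisons.

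**Figure D1:**
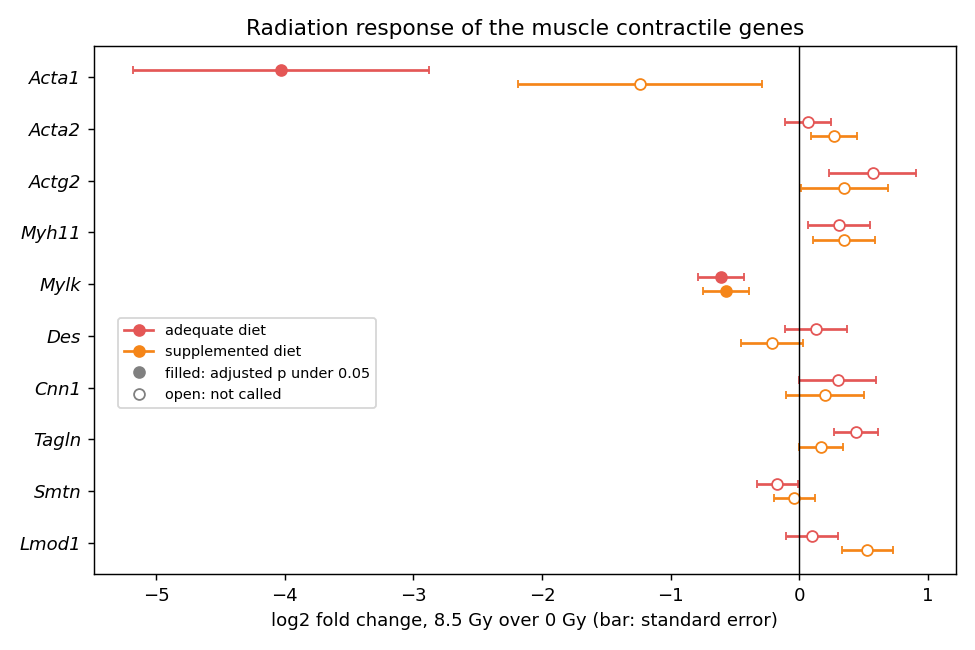
Fitted log2 fold change of each muscle gene, 8.5 Gy over 0 Gy, on the adequate (red) and the supplemented (orange) diet, with filled points for genes called. Bars show 1 standard error from the fit over all 16 libraries, 4 per group. Acta1 at -4.03 lies far to the left on the adequate diet, Mylk lies at -0.61 and -0.57 on the diets, and the other 8 genes lie between -0.21 and 0.57.

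Acta1, the skeletal muscle actin, had the widest range of the set. In unirradiated libraries of the adequate diet it stood at 126.2, 56.0, 24.5 and 32.8 CPM, and in irradiated ones at 1.27, 4.15, 5.73 and 3.25 CPM. Every irradiated library was below every unirradiated one. The fall was 16.4-fold (log2 fold change -4.03 ± 1.15 SE, edgeR adjusted p = 0.035, n = 4 per group), and it rests on few counts, since the irradiated libraries held 12.5, 10.5, 55.94 and 38.58 estimated counts.

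Leaving out each of the 8 libraries in turn, Acta1 kept a value between -4.46 and -3.42, and its adjusted p rose above 0.05 in 6 of the 8 cases, to at most 0.101. These are unirradiated replicates 1 and 2 and each irradiated replicate. Without the 3 libraries under 4 M counts it was -3.45 with an adjusted p of 0.118, also from edgeR. The direction was downward each time, and the call was not stable at this number of libraries.

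Under supplementation Acta1 stood at 53.9, 11.9, 11.7 and 59.7 CPM without irradiation and at 2.64, 1.68, 3.72 and 48.3 CPM with it. Below all unirradiated libraries lay 3 of the 4 irradiated ones, and replicate 4 lay among the high unirradiated ones. The log2 fold change was -1.24 ± 0.95 and was not called (edgeR adjusted p = 0.424). Without that replicate it was -3.67 with an edgeR adjusted p of 0.0119.

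**Figure D2:**
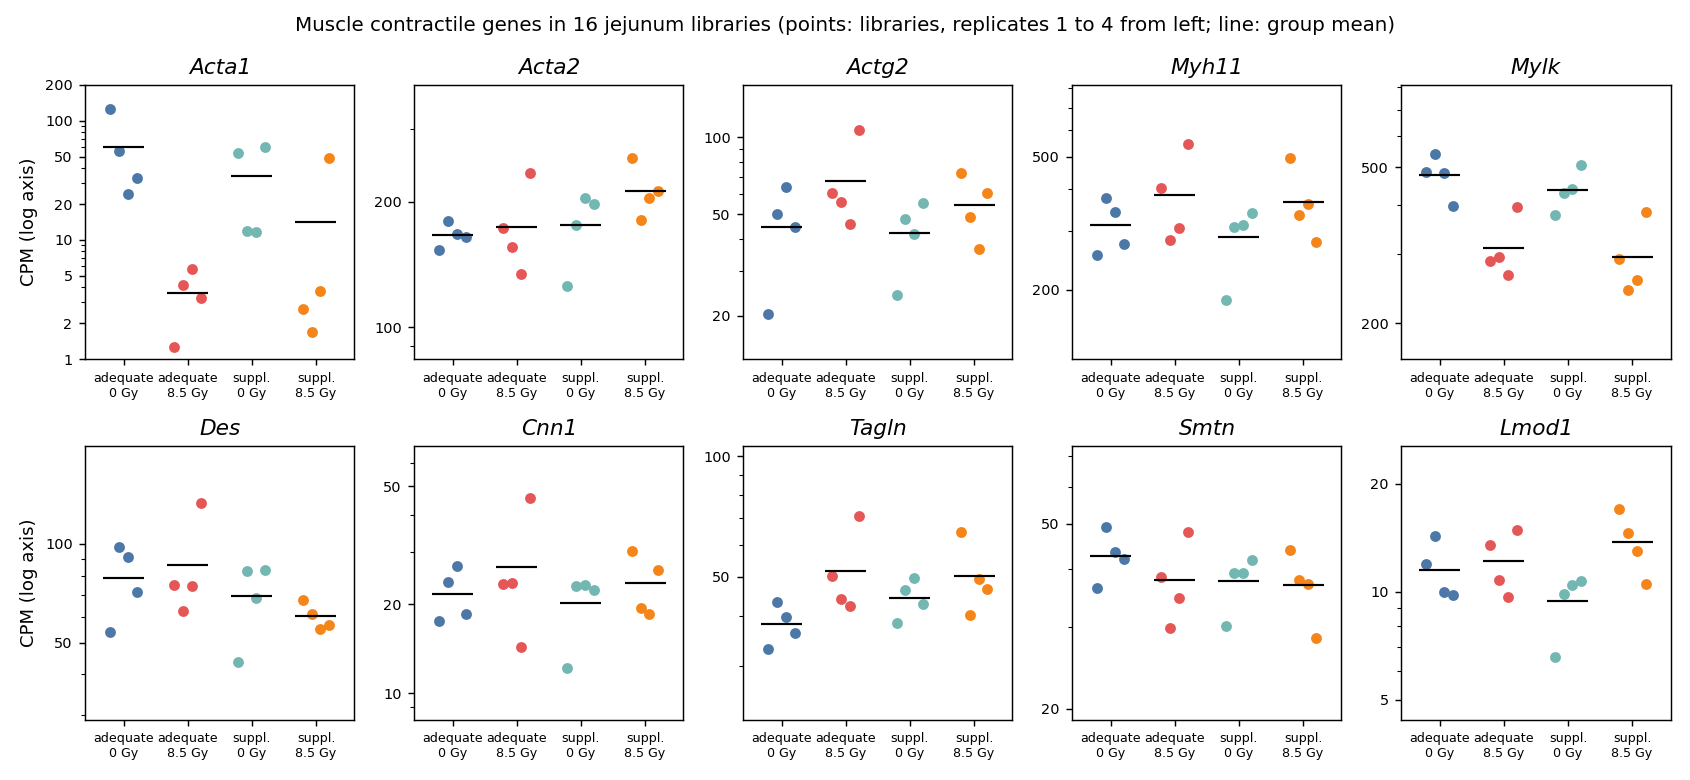
CPM of the 10 muscle genes on log axes, 1 point per library in the order of replicates 1 to 4 and a line at the mean of each group of 4. Acta1 runs from 1.27 to 126.2 CPM with replicate 4 of the irradiated supplemented group apart at 48.3, Mylk is lower in both irradiated groups, and the groups of the other 8 genes overlap.

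Other striated muscle genes were for the most part near 0, with some at a few CPM. Of 36 such genes, 23 were under 1 CPM in every library and 9 passed the filter on low counts. Apart from the cardiac actin Actc1, the highest were the giant filament genes Ttn, at 2.49 to 7.58 CPM, and Neb, at 1.78 to 4.22 CPM, the perinatal myosin Myh8, at 1.53 to 4.95 CPM, and the muscle creatine kinase Ckm, at up to 4.74 CPM. The fast skeletal myosin Myh4 reached at most 0.482 CPM, myoglobin (Mb) at most 0.134 CPM and the fast troponin Tnni2 at most 0.383 CPM, while Myh2, Pvalb and Mybpc1 had 0 counts in all 16 libraries. The list's summed level was 26.6 to 44.2 CPM per library, of which Actc1 held 8.87 to 24.4 CPM. In 7 of the 8 irradiated libraries this sum was above the Acta1 level.

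None of the 9 tested striated genes was called by edgeR on either diet, with 0 at an unadjusted p under 0.05 on each. Of all 16558 genes 4862 and 4853 had such a p on the adequate and supplemented diets. The shares called were 7.13% and 8.03% higher and 6.58% and 7.21% lower. Over the 16 alternatives run in each comparison, at most 1 was called lower on the adequate and 2 on the supplemented diet. The list's summed level in the library with the highest Acta1 (126.2 CPM) was 28.8 CPM, and in the library with the lowest (1.27 CPM) it was 37.7 CPM. The medians of the 9 tested were -0.18 on the adequate and -0.15 on the supplemented diet, with 6 and 5 of 9 below 0. The summed level of all 36 was 34 ± 3.51 CPM without and 35.3 ± 7.49 CPM with irradiation on the adequate diet, and 34.8 ± 2.79 and 39.5 ± 2.15 CPM on the supplemented diet. Much of it was Actc1: summed without that gene the list was at 23.4 ± 3.67 and 20.9 ± 3.5 CPM on the adequate diet and at 20 ± 3.33 and 19.0 ± 1.43 CPM on the supplemented diet, differences within 1 SD of the libraries.

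**Figure D3:**
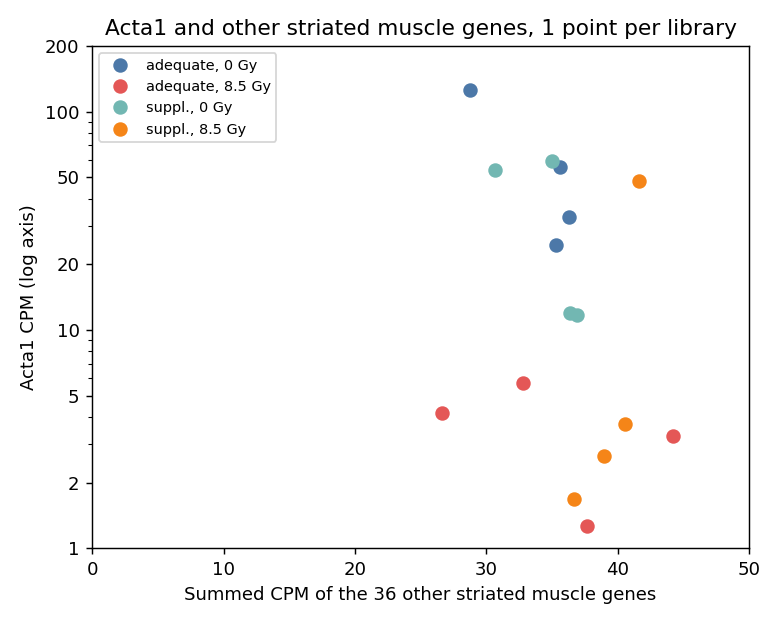
Acta1 CPM on a log axis against the summed CPM of 36 other striated muscle genes, 1 point per library coloured by group. The summed level stays between 26.6 and 44.2 CPM while Acta1 covers 1.27 to 126.2 CPM.

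The cytoplasmic actins, which are far more abundant than Acta1, were followed beside it, and Actb shares the 48-base stretches named above with it. Actb was at 3015 to 7336 CPM and was not called on either diet (log2 fold change -0.14 ± 0.27 and -0.31 ± 0.27). Actg1 went from 1301 ± 575.5 to 907.2 ± 117.8 CPM when methionine was adequate (mean ± SD of 4 libraries each) and was not called, with a log2 fold change of -0.52 ± 0.27. It fell on the supplemented diet, from 1332 ± 280.6 to 644.1 ± 132.7 CPM (-1.05 ± 0.27, edgeR adjusted p = 0.017). In the irradiated supplemented library with high Acta1, Actb was at 7336 CPM and Actg1 at 839.8 CPM, both the highest of that group. What part reads of these actins have in the Acta1 level was not tested.

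A CArG box, searched on both strands in windows from 250 bases before to 50 after each gene's start (RefSeq, GRCm38.p6), was found in 1.63% of 32851 windows. Only the strict form CCWWWWWWGG, with W for A or T, was searched. Windows existed for 7 of the 10 muscle genes, and 1 of the 7, Acta1, held a box of this form. It is shown with 30 bases on each side, 5′ to 3′ on the minus strand, with the box in capitals, at chr8:123894809-123894878. The box of Actc1, the other striated actin, lies at chr2:114052883-114052952 on the minus strand and is shown beside it.
Acta1: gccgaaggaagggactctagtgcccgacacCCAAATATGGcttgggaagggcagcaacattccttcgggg
Actc1: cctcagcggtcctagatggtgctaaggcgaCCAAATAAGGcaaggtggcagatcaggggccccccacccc
The box of Acta1 began 73 bases before the start and that of Actc1 47 bases before it. Actc1 went from 10.6 ± 2.02 to 14.4 ± 5.94 CPM on the adequate diet and was not called (0.48 ± 0.24, edgeR adjusted p = 0.208). Among the other genes looked up, the windows of Actg1, Myl9 and Srf also held a box. Of these Actg1 fell on the supplemented diet, as given above, while Myl9 (0.08 ± 0.19 and 0.20 ± 0.19) and Srf were not called on either diet. A match describes these letters alone. Windows without one may hold boxes that differ from the strict form, and say nothing on whether SRF binds there or elsewhere at a gene.

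The smooth muscle actins were not called. Acta2, the actin of vascular and visceral smooth muscle and of pericytes and myofibroblasts, was at 153.4, 180.2, 167.5 and 164.6 CPM in unirradiated and at 173.3, 155.6, 134.1 and 234.3 CPM in irradiated libraries of the adequate diet. Supplemented libraries had 125.7, 176.4, 204.3 and 197.8 CPM without and at 254.7, 180.5, 203.8 and 212.5 CPM with irradiation. The groups overlapped on both diets, with log2 fold changes of 0.07 ± 0.18 and 0.27 ± 0.18 (edgeR adjusted p = 0.847 and 0.332).

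Actg2, the actin of enteric smooth muscle, was at 20.3, 50.2, 63.7 and 44.6 CPM without and 60.5, 56.0, 45.7 and 107.1 CPM with irradiation on the adequate diet. In supplemented libraries it was at 24.1, 48.1, 41.8 and 55.5 CPM without and at 72.5, 48.9, 36.4 and 60.3 CPM with irradiation. Its means were higher with irradiation and the libraries overlapped, with changes of 0.57 ± 0.34 and 0.35 ± 0.34 (edgeR adjusted p = 0.29 and 0.533). The low unirradiated values on each diet came from replicate 1.

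Myh11, the heavy chain of smooth muscle myosin and the standard marker of the cell type, was at 253.5, 376.0, 340.8 and 274.6 CPM without and 404.0, 282.1, 305.8 and 546.5 CPM with irradiation on the adequate diet. The supplemented diet gave 185.9, 307.6, 312.9 and 339.6 CPM without and 495.3, 334.5, 360.2 and 276.8 CPM with irradiation. Groups overlapped on both diets. The changes of 0.31 ± 0.24 and 0.35 ± 0.24 were not called (edgeR adjusted p = 0.431 and 0.35).

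Mylk, the kinase that switches this myosin on, went the other way. It was at 485.0, 540.7, 482.5 and 398.9 CPM without and 288.2, 294.6, 266.4 and 395.6 CPM with irradiation on the adequate diet. All 4 irradiated libraries were below all 4 unirradiated ones, although replicate 4 lay close to the lowest of them. The fall was 1.53-fold (log2 fold change -0.61 ± 0.18, edgeR adjusted p = 0.0277, n = 4 per group).

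Supplemented libraries had Mylk at 377.8, 428.8, 439.1 and 507.5 CPM without and 292.3, 243.3, 257.4 and 385.7 CPM with irradiation. Again 3 of the 4 irradiated libraries lay below all unirradiated ones, and replicate 4 lay just above the lowest unirradiated one. The fall was 1.49-fold (-0.57 ± 0.18, edgeR adjusted p = 0.036), and without irradiated replicate 4 it was -0.73 (edgeR adjusted p = 0.00416). Leaving out libraries in turn kept Mylk between -0.75 and -0.55 on the adequate diet and between -0.73 and -0.49 on the supplemented diet, and the call was lost in 6 of 8 cases on each, with an adjusted p of at most 0.0849 and 0.121. Without the 3 libraries under 4 M counts the values were -0.57 and -0.56, with an adjusted p of 0.115 and 0.0932. On the adequate diet the call held without unirradiated replicate 4 or irradiated replicate 4, and on the supplemented diet without unirradiated replicate 1 or irradiated replicate 4.

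Mylk also moved against the other smooth muscle genes within each library. Its log2 CPM minus the mean log2 CPM of the 8 members other than Acta1 was 2.99 to 3.51 without and 2.14 to 2.51 with irradiation on the adequate diet. With supplementation it was 2.95 to 3.43 without and 1.98 to 2.84 with irradiation. The groups did not overlap on either diet, and this ratio, formed after the levels were seen, was not tested. A ratio within libraries shows unequal change and does not say which gene changed.

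**Figure D4:**
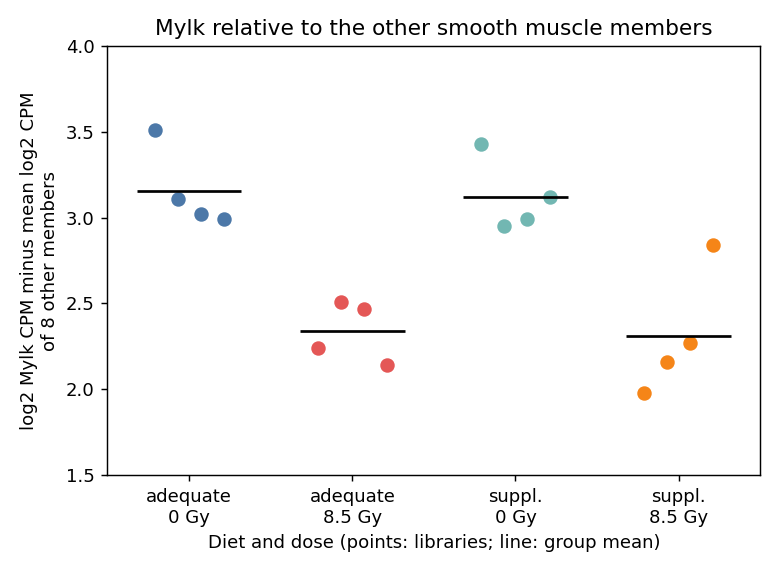
log2 CPM of Mylk minus the mean log2 CPM of Acta2, Actg2, Myh11, Des, Cnn1, Tagln, Smtn and Lmod1, 1 point per library and a line at each group's mean. Irradiated libraries lie between 1.98 and 2.84 and unirradiated ones between 2.95 and 3.51.

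The Mylk gene gives rise to a long kinase of many cell types, a short kinase of smooth muscle and telokin, a small protein of smooth muscle, and the files sum these. The mean transcript length that the files give for Mylk, weighted by abundance, was 4321 to 4447 bases without and 4398 to 4650 bases with irradiation on the adequate diet. With supplementation it was 4245 to 4361 without and 4319 to 4575 bases with irradiation. Ranges overlapped on both diets, and which transcript fell was not tested.

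Among the proteins of the thin filament, Cnn1 (calponin) was at 17.6, 23.8, 27.0 and 18.5 CPM without and 23.4, 23.6, 14.3 and 45.8 CPM with irradiation on the adequate diet, and at 12.2, 23.0, 23.2 and 22.3 against 30.2, 19.4, 18.6 and 26.1 CPM on the supplemented diet. Neither change was called (0.30 ± 0.30 and 0.20 ± 0.30). Tagln (transgelin) was at 33.0, 43.4, 39.8 and 36.2 CPM without and 50.2, 44.0, 42.3 and 70.9 CPM with irradiation on the adequate diet, so that 3 of 4 irradiated libraries exceeded all unirradiated ones. Its change of 0.44 ± 0.17 did not pass (edgeR adjusted p = 0.0906), and on the supplemented diet it was 0.17 ± 0.17, from 44.4 ± 4.92 to 50.3 ± 10.5 CPM.

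Lmod1, which nucleates actin filaments in smooth muscle, was the lowest of the smooth muscle members. It was at 11.9, 14.3, 10 and 9.80 CPM without and 13.5, 10.8, 9.63 and 14.8 CPM with irradiation on the adequate diet (0.10 ± 0.20). With supplementation it was at 6.59, 9.87, 10.4 and 10.7 CPM without and 17.0, 14.6, 13 and 10.5 CPM with irradiation. There 3 of 4 irradiated libraries lay above all unirradiated ones, and the change of 0.53 ± 0.20 did not pass (edgeR adjusted p = 0.0739), while without irradiated replicate 4 it was 0.64 and passed (edgeR adjusted p = 0.0282).

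Smtn (smoothelin) went from 42.7 ± 5.21 to 37.8 ± 7.74 CPM on the adequate and from 37.6 ± 5.11 to 36.9 ± 6.42 CPM on the supplemented diet, with changes of -0.17 ± 0.16 and -0.04 ± 0.16. Des (desmin) was at 53.7, 98.0, 91.3 and 71.4 CPM without and 74.8, 62.2, 74.2 and 132.9 CPM with irradiation on the adequate diet (0.13 ± 0.24). In supplemented libraries it was at 43.6, 82.5, 68.4 and 83.2 without and 67.5, 61.2, 55.0 and 56.7 CPM with irradiation (-0.21 ± 0.24). Groups of both genes overlapped on both diets and none of these changes was called.

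Methionine supplementation changed none of the 10 genes past the test. Without irradiation 0 of 10 were called by edgeR, with 0 at an unadjusted p under 0.05, where 0.199% of all genes tested were called. The median log2 fold change of supplemented over adequate was -0.12 against -0.01 over all genes, and 8 of 10 were below 0. Values lay between -0.75 ± 0.92 for Acta1 and 0.21 ± 0.17 for Tagln.

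After irradiation 0 of 10 were called, with 1 at an unadjusted p under 0.05, where 0% of all genes were called and 871 of 16558 had an unadjusted p under 0.05. That gene was Des, lower in supplemented libraries (-0.53 ± 0.24, edgeR adjusted p = 0.931), with 3 of its 4 supplemented libraries below all adequate ones. Acta1 had a value of 2.05 ± 1.15 there, and without supplemented irradiated replicate 4 the value was -0.38. DESeq2 and limma called 0 of the 10 in either diet comparison.

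The diet by radiation interaction, the supplemented response to radiation less the adequate one, was called for 0 of 10 by edgeR, DESeq2 and limma, with 0 at an unadjusted p under 0.05, where 0% of all genes were called and 738 had an unadjusted p under 0.05. The smallest unadjusted p of a member was 0.0801, for Acta1 (2.80 ± 1.47), and its value without supplemented irradiated replicate 4 was 0.36. Mylk had 0.04 ± 0.25, with falls of like size on each diet. Lmod1 had 0.43 ± 0.28 and Tagln -0.28 ± 0.24.

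The 10 genes differed in level per transcript length, given as CPM per kb of the mean length in the files. In unirradiated libraries of the adequate diet the order was Mylk (109.0 ± 13), Acta2 (93.4 ± 6.18), Actg2 (48.3 ± 19.4), Myh11 (47.1 ± 8.66), Acta1 (41.4 ± 31.9), Des (33.5 ± 10.5), Tagln (24.0 ± 2.85), Smtn (17.3 ± 2.74), Cnn1 (9.18 ± 1.87) and Lmod1 (2.92 ± 0.532). The ranges of Mylk and Acta2 overlapped, as did those of neighbours from Actg2 down to Tagln, while in that group every library of Acta2 lay above those of Actg2, and likewise Tagln above Smtn, Smtn above Cnn1 and Cnn1 above Lmod1. Supplemented libraries again had Mylk (101.6 ± 11.8) and Acta2 (98.8 ± 20) at the top with overlapping ranges.

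With irradiation Acta2 led on both diets, at 97.9 ± 24.2 CPM per kb on the adequate and 119.5 ± 17.4 on the supplemented diet. Mylk was at 68.9 ± 11.2 and 66.1 ± 16 CPM per kb, just behind Actg2 (69.6 ± 28.2) on the adequate diet and next after Acta2 on the supplemented diet. Its range lay under that of Acta2 on the supplemented diet and overlapped that of Actg2 on both. Acta1 was the last of the 10 on the adequate diet (2.49 ± 1.29 CPM per kb), where its range overlapped that of Lmod1.

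Apart from Acta1 and Mylk, the muscle genes rose and fell together from library to library. Over 16 libraries, the 28 pairs among the 8 others had Pearson correlations of log2 CPM between 0.35 and 0.84 with a median of 0.71. The 8 pairs with Mylk lay between -0.25 and 0.35. Acta1 correlated with Mylk at 0.80, and its 9 pairs had a median of -0.30. These describe libraries that share a group, a scaling and a depth, and carry no test.

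**Figure D5:**
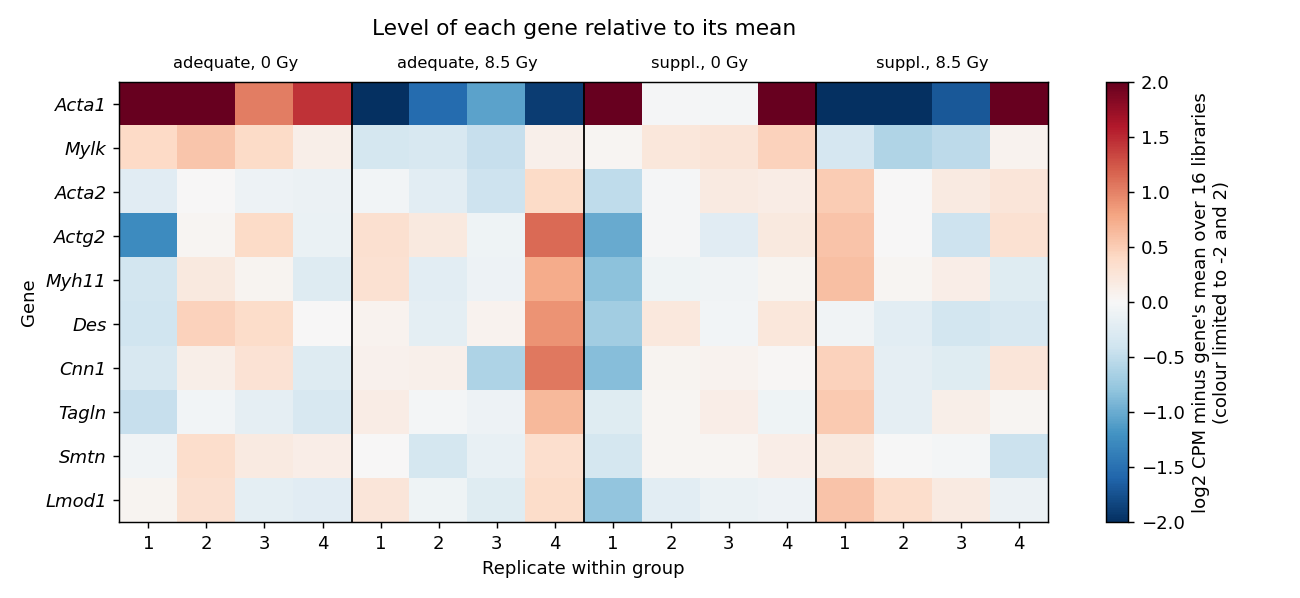
log2 CPM of each gene minus its mean over 16 libraries, with libraries in columns by group and replicate and colours limited to -2 and 2. The other 8 genes share the low unirradiated supplemented replicate 1 and the high irradiated adequate replicate 4, and Acta1 is low in the irradiated libraries apart from supplemented replicate 4.

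The genes outside the set whose log2 CPM was most like the mean standardised level of the 9 members without Acta1 were Flna (Pearson r 0.895 over 16 libraries), Synpo2 (0.892), Myl9 (0.887), Rgs5 (0.872), Cpe (0.858), Fxyd6 (0.846), Tns1 (0.837) and Abcc9 (0.823). Flna is the actin crosslinker filamin A, Myl9 the regulatory light chain of smooth muscle myosin, and Rgs5 and Abcc9 mark pericytes. None of the 8 was called for radiation on either diet. Flna, for example, had log2 fold changes of 0.15 ± 0.17 and 0.08 ± 0.17. Since the 8 were picked for likeness, over the same libraries, to members mostly not called, this absence of calls was favoured by the choice.

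Most like Acta1 were Tmem246 (0.942), Dact2 (0.94), Slc16a6 (0.938), B4galt3 (0.938) and Pfkp (0.937). Dact2, which encodes an inhibitor of Wnt and TGF-beta signalling, stood at 25.3 to 27.6 CPM in unirradiated and 8.71 to 13.3 CPM in irradiated libraries of the adequate diet (-1.34 ± 0.29, edgeR adjusted p = 0.00646). In the irradiated supplemented group Dact2 was at 7.63, 8.32, 8.20 and 18.9 CPM, and Slc16a6, a transporter of the monocarboxylate family, at 29.3, 37.3, 36.6 and 114.8 CPM. In both genes replicate 4 was the high library. These genes were picked for likeness to Acta1 over the same libraries, so their falls and the high replicate 4 were favoured by that choice.

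The other parts of the contractile apparatus were counted by lists. Of 27 partners of the 10 genes, such as light chains, tropomyosins and filament anchors, 2 rose and 0 fell on each diet, a share near the 7.13% and 8.03% of all genes called higher. The genes were the same on both: Mustn1, a small nuclear protein of the musculoskeletal system, at 4.19 ± 0.900 against 6.95 ± 0.611 CPM on the adequate diet (0.78 ± 0.17, edgeR adjusted p = 0.00738), and Filip1l, a filamin-interacting protein, at 25.4 ± 1.94 against 41.4 ± 8.54 CPM (0.71 ± 0.17, edgeR adjusted p = 0.0121). On the supplemented diet they changed by 0.77 ± 0.16 and 0.52 ± 0.17, and the latter was lost in 6 of 8 cases when libraries were left out in turn. The median over the 27 was 0.11 on the adequate and 0.04 on the supplemented diet.

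Of 25 tested genes that control contraction through calcium, kinases or myosin phosphatase, 1 rose and 2 fell on the adequate diet and 2 rose and 1 fell on the supplemented diet, shares near those of all genes (7.13% higher and 6.58% lower on the adequate diet, 8.03% and 7.21% on the supplemented diet). Itpr1, the channel that releases calcium from internal stores, fell on the adequate diet from 245.5 ± 38.8 to 89.3 ± 38.3 CPM (-1.45 ± 0.37, edgeR adjusted p = 0.0167). On the supplemented diet Itpr1 was at 72.5, 78.1, 95.7 and 269.5 CPM in irradiated libraries, with replicate 4 high as for Acta1, and was not called. Arhgef1, a guanine nucleotide exchange factor, fell on both (-0.59 ± 0.10 and -0.43 ± 0.10, edgeR adjusted p = 0.00165 and 0.0108). Ppp1cb, the catalytic subunit of myosin phosphatase, rose on the adequate diet (0.43 ± 0.10), and Pde5a, which breaks down cGMP, and Kcnma1, a potassium channel that calcium opens, rose on the supplemented diet (0.48 ± 0.10 and 0.74 ± 0.23). The call of Kcnma1 was lost in 6 of 8 cases when libraries were left out in turn, and that of Itpr1 without irradiated replicate 1.

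Among 10 tested genes of the SRF and myocardin group, Mrtfb, an actin-sensing SRF cofactor, rose on both diets and the other 9 were not called. As a share of the list this is near the 7.13% and 8.03% of all genes called higher. Mrtfb was at 57.2 to 61.4 CPM without and 71.0 to 86.4 CPM with irradiation on the adequate diet (0.42 ± 0.09, edgeR adjusted p = 0.00613). On the supplemented diet it was at 58.1 to 63.4 against 81.7 to 94.2 CPM (0.51 ± 0.09, edgeR adjusted p = 0.00146). Irradiated and unirradiated libraries did not overlap on either diet. The group's median was 0.07 on the adequate and -0.16 on the supplemented diet.

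The other list of SRF targets holds immediate early genes that respond to growth factors. It also holds the cytoplasmic actin Actg1, which is counted among the paralogues too. Of 11 tested, 5 fell on the supplemented diet and 0 rose (median -1.05), where 7.21% of all genes were called lower: Ier2 (-1.30 ± 0.30), Actg1, Junb (-1.0 ± 0.26), Egr1 (-2.60 ± 0.66) and Ccn1 (-1.52 ± 0.48). On the adequate diet 0 of 11 were called by edgeR, with 0 at an unadjusted p under 0.05 and 0 under each of the 16 alternatives. Unirradiated supplemented libraries were spread widely, with Egr1 at 52.8, 16.2, 68.2 and 157.5 CPM against 8.34 to 14.0 CPM with irradiation. The number that fell was 1 to 6 over the 16 alternatives: 1 without unirradiated replicate 4 or irradiated replicate 3, 2 without irradiated replicate 2 and 3 without unirradiated replicate 1. The call of Ccn1 was lost in 7 of 8 cases when libraries were left out in turn. In the diet comparison without irradiation, which shares those unirradiated libraries, 10 of the 11 were above 0 (median 0.75), with 5 at an unadjusted p under 0.05 and 0 called by edgeR. The interaction was called by edgeR for 0 of the 11, with 8 at an unadjusted p under 0.05 and a median of -1.01, and for 0 under each of the 23 alternatives.

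Related genes of other cells were counted beside the members. On the adequate and supplemented diets 7.13% and 8.03% of all genes were called higher and 6.58% and 7.21% lower. Of 14 tested paralogues, Cnn3, a calponin of non-muscle cells, rose on both diets, from 27.9 ± 4.21 to 62.3 ± 12.4 CPM (1.15 ± 0.18, edgeR adjusted p = 0.000784) and from 39.7 ± 8.88 to 74.6 ± 13.4 CPM (0.91 ± 0.18, edgeR adjusted p = 0.00281). Its muscle relative Cnn1 was not called on either, as given above. On the supplemented diet Vim, the intermediate filament of mesenchymal cells, also rose (0.63 ± 0.18) and Actg1 fell.

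Markers of cell types that share members with smooth muscle were counted as well. Of the 15 further smooth muscle markers 0 were called by edgeR on either diet, and at most 1, on the supplemented diet, under any of the 16 alternatives. On the adequate and supplemented diets 2 and 1 had an unadjusted p under 0.05, against 4862 and 4853 of all 16558 genes. For this list and those that follow, 7.13% and 8.03% of all genes were called higher on these diets and 6.58% and 7.21% lower. Of 8 tested pericyte markers Notch3 fell on the supplemented diet (-0.47 ± 0.15), a call lost in 7 of 8 cases when libraries were left out in turn, and none was called on the adequate diet, with 2 at an unadjusted p under 0.05. Of 14 genes of fibroblasts, which include cells that can make Acta2 and Tagln, Dcn, Mmp2 and Col6a1 rose on the adequate diet. On the supplemented diet Dcn, Postn, Mmp2 and Lum rose. Leaving out libraries in turn, the call on the adequate diet was lost in 6 of 8 cases for Col6a1 and 3 of 8 for Mmp2. The summed level of the fibroblast list was 1553 to 2041 CPM without and 1649 to 3371 CPM with irradiation on the adequate diet, and 1936 to 2762 against 2525 to 3322 CPM on the supplemented diet. All 5 genes of red blood cells fell on both diets, their summed level from 364.7 to 591.1 CPM down to 3.28 to 8.66 CPM on the adequate diet. What part any of these has in the levels of the muscle genes was not tested.

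On the deposited TPM scale, a share of the whole library per transcript length, the picture differs. Genes with a mean length under 200 bases took 73.6 to 78.8% of TPM in unirradiated libraries and 83.8 to 90.1% in irradiated ones, and protein-coding genes 12.7 to 17.3% and 5.6 to 9.63%. The median log2 change of all genes tested was -0.97 on the adequate and -1.13 on the supplemented diet, and 79.9% and 85.1% of all genes were called lower by limma on log2(TPM + 0.1). All 10 muscle genes had lower mean TPM with irradiation on both diets. Of them 9 were called lower on the adequate diet and 10 on the supplemented diet, shares near those of all genes.

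Mylk and Acta1 had the most negative TPM changes of the 10 on both diets. Mylk went from 40.1 ± 3.52 to 12.1 ± 2.07 TPM on the adequate diet, a change of -1.73, and from 38.1 ± 8.45 to 10.4 ± 4.39 TPM (-1.91) on the supplemented diet, both below the median of all genes. Acta1 changed by -4.65 and -3.22. Acta2 changed by -1.03 and -0.99 and Myh11 by -0.79 and -0.92, close to the median of all genes, so their direction depends on the scale and that of Mylk and Acta1 does not.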

How the data were processed

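RNA of 16 jejunum libraries was analysed from the deposited tables, 1 per library. Library making took in depletion of ribosomal RNA, fragmentation and a small RNA kit, per the labels' protocols. Per the submitters' processing notes, Bowtie2 2.2.9, RSEM 1.3.0, edgeR 3.2.4 and genome build NCBIM37 were used. Per the file headers, the authors deposited RSEM expected counts, TPM and mean transcript lengths per gene. Expected counts were rounded to whole numbers.

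Genes that passed filterByExpr of edgeR 4.0.16 (16558) were scaled by TMM and tested with its two-sided quasi-likelihood test with robust dispersions (R 4.3.3), with 1 mean per group over all 16 libraries and Benjamini-Hochberg adjustment over all genes. The common biological coefficient of variation was 0.219. Errors of fold changes are standard errors, taken as the size of the change over the root of the test's F, and those of levels SDs. Scripts were tested on simulated data. DESeq2 1.42.0, limma 3.58.1, other scalings, filters and libraries left out in turn served as alternatives, and deposited TPM with a pseudocount of 0.1 was added after seeing the data.

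Symbols came from GENCODE M21, which named 32897 of 37620 IDs. Its build, GRCm38, is later than that of the files and gave names and sequence comparisons alone. Promoters came from RefSeq.

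The members and gene lists were chosen with earlier results of these data known. Named genes are the 10 members, the called genes of each list (at most 6 per comparison), and the 8 and 5 genes most alike to the members without Acta1 and to Acta1. Genes named as low striated markers, the cytoplasmic actins, Hba-a1, and antisense genes were added after their values were seen.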

Additional observations from a re-analysis of the deposited data

Results flagged for a closer look

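Each of the 10 genes was examined in each group of 4 libraries for a highest or lowest library far from the others, 40 groups in all, where chance gives about 1 in 20. In 2 of them the gap to the nearest library was larger, as a share of the group's whole range, than Dixon's critical value for 4. Acta1 in supplemented irradiated replicate 4 was at 48.3 CPM, with the other 3 libraries of the group between 1.68 and 3.72 CPM. Cnn1 in supplemented unirradiated replicate 1 was at 12.2 CPM, with the others between 22.3 and 23.2 CPM. The second of these libraries was the lowest of its group for all 9 members without Acta1. The first was the highest for 1 and the lowest for 3 of those 9.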

How the results depend on the processing

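Of 870 values of the muscle genes under the settings other than TPM, 809 kept their direction and call, 34 changed sign, 25 lost a call and 2 gained one. The 2 muscle genes called on the adequate diet became 0 with no filter on low counts, 0 without the 3 libraries under 4 M counts, 9 on deposited TPM, and 0 to 2 leaving out libraries in turn. The 1 on the supplemented diet became 0 with no filter, without the shallow libraries and with only the groups compared, 10 on TPM, and 0 to 3 leaving out libraries. More genes are tested without the filter and fewer libraries enter without the shallow ones. On deposited TPM the median of all genes tested was -0.97 on the adequate and -1.13 on the supplemented diet, and several muscle genes turned negative. On the adequate diet these were Acta2 (-1.03), Actg2 (-0.51), Myh11 (-0.79), Des (-0.90), Cnn1 (-0.83), Tagln (-0.64) and Lmod1 (-0.87). On the supplemented diet they were Acta2 (-0.99), Actg2 (-0.84), Myh11 (-0.92), Cnn1 (-0.99), Tagln (-1.10) and Lmod1 (-0.63). What turned them was not tested. With limma voom Myh11 in the diet comparison after irradiation became 0.06 and Cnn1 in the interaction 0.00, and without the shallow libraries Myh11 in the interaction became -0.17. For these 3 the cause was not tested, and none was a called value.

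Leaving out libraries in turn crossed 0 only for muscle gene values that were not called. On the adequate diet the radiation values ran from -0.11 to 0.18 for Acta2, -0.16 to 0.25 for Des, -0.13 to 0.52 for Cnn1 and -0.01 to 0.25 for Lmod1, each low end without irradiated replicate 4, and on the supplemented diet from -0.13 to 0.07 for Smtn. The diet values without irradiation ran from -0.31 to 0.11 for Actg2, -0.21 to 0.04 for Myh11 and -0.20 to 0.05 for Cnn1. After irradiation they ran from -0.38 to 2.48 for Acta1, -0.25 to 0.14 for Myh11, -0.24 to 0.06 for Mylk, -0.45 to 0.20 for Cnn1, -0.20 to 0.13 for Tagln and -0.15 to 0.07 for Smtn. Interaction values ran from -0.43 to 0.11 for Actg2, -0.13 to 0.26 for Myh11, -0.12 to 0.18 for Mylk and -0.33 to 0.33 for Cnn1.

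Among genes of the other lists, Arhgef1, Cnn3, Dcn, Krt18, Mrtfb and Mustn1 on both diets, Filip1l and Ppp1cb on the adequate diet, and Ier2, Kit, Lum, Mmp2, Pde5a, Postn and Thbs4 on the supplemented diet kept their call in each setting that gave an adjusted p, blood genes not examined. Calls were lost in 7 of 8 cases leaving out libraries for Upk3b, 6 for Col6a1, 5 for Cdx2 and Msln, 4 for Actg1, 3 for Egr1, Vim and, on the adequate diet, Mmp2, and 2 for Junb and Lgals4.

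Over all genes, the 2270 calls on the adequate diet became 1438 without the shallow libraries and 1231 to 2478 leaving out libraries, the 2523 on the supplemented diet 1434 to 3627, and the 33 for diet without irradiation 229 with DESeq2, 51 with voom, 139 with only the groups compared, 0 without the shallow libraries and 0 to 49 leaving out libraries. With DESeq2 the 0 calls for diet after irradiation became 6 and the 0 for the interaction 2. Depth limits the value of Acta1, with 10.5 to 55.94 estimated counts in the irradiated libraries of the adequate diet. No paired analysis was possible because the labels name no pairing between libraries of different groups.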

Other observations

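Cell types that lie beside the muscle layers were counted by lists of their markers. For these lists and those below, 7.13% and 8.03% of all genes were called higher on the adequate and supplemented diets. The shares called lower were 6.58% and 7.21%, and 4862 and 4853 of 16558 genes had an unadjusted edgeR p under 0.05. Of 6 genes of interstitial cells of Cajal, the pacemaker cells of the gut, Thbs4 and Kit rose on the supplemented diet, Thbs4 from 0.404 ± 0.249 to 2.74 ± 0.773 CPM (log2 fold change 2.67 ± 0.42, edgeR adjusted p = 0.000657) and Kit from 16 ± 3.81 to 27.7 ± 6.21 CPM (0.78 ± 0.18, edgeR adjusted p = 0.00827). On the adequate diet 0 of the 6 were called by edgeR and 3 had an unadjusted p under 0.05, among them Kit at 0.48 ± 0.18 and Thbs4 at 1.28 ± 0.44. All 6 values were above 0 on both diets, with medians of 0.44 and 0.42, where 8369 and 8392 of all 16558 genes were above 0. Thbs4 is also made by fibroblasts and tendon cells, and Kit by mast cells.

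Of 8 tested genes of enteric neurons and glia 0 were called by edgeR on either diet, with 1 at an unadjusted p under 0.05 on each. Of 4 tested genes of the serosa, the outer lining of the gut, Upk3b fell on the adequate diet (-1.20 ± 0.38) and Msln rose on the supplemented diet (2.18 ± 0.63). Their calls were lost in 7 and 5 of 8 cases when libraries were left out in turn. Of 13 epithelial genes Krt18 rose on both diets (0.74 ± 0.13 and 0.82 ± 0.13), and on the adequate diet Lgals4 rose (0.62 ± 0.16) and Cdx2 fell (-0.55 ± 0.16). Of 3 tested fat cell genes 0 were called by edgeR, with 0 and 1 at an unadjusted p under 0.05. Supplementation called 0 genes of these lists at either dose.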
